A study of Mus musculus with 19 samples.

Results

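The 9 keratin genes Krt1, Krt5, Krt8, Krt10, Krt14, Krt15, Krt17, Krt18 and Krt19 were followed over 19 expression arrays of sorted mouse skeletal cells. They were found by symbol among 18193 genes named by 45101 probe sets. A probe set is a group of short array features that reads 1 transcript. The 9 genes were read by 14 probe sets with a single symbol, and 1 further probe set shared by Krt14 and Krt17 was assigned to neither. Levels of Krt5, Krt14 and Krt15 in the Thy+6C3-CD105- population had already been seen when the genes were put together. For these 9 genes, every comparison with that population or with its Thy- counterpart is therefore given as a description, with no test. Other keratins, listed apart from the 9, were tested there.

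The neonatal arrays were made from limb cells, front and back, of mice aged 3 days after birth, wild-type by genotype and also described as GFP-labelled. All sorted cells lacked CD45, a leukocyte antigen, Ter119, an erythroid antigen, and Tie2, an endothelial antigen, and carried integrin alpha V. They were divided by Thy (Thy1), 6C3 (the peptidase Enpep) and CD105 (endoglin) into 6 populations with 3 arrays each: the Thy+6C3- cells, the Thy-6C3+ cells and the Thy-6C3- cells, every one of them in a CD105+ and a CD105- fraction. A single adult array held Thy+6C3+CD105+ cells, with sternum and ear in one label and limbs in another, and it entered no test. Limbs of a litter were pooled and RNA was amplified before labelling, so a p-value here measures only the spread between arrays, which may be technical. Replicates 2 and 3 of Thy-6C3+CD105- carry titles that say Thy+, and the population label, not the title, set their group.

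Keratins are the intermediate filament proteins of epithelial cells, and a filament is built from pairs of 1 type I and 1 type II chain. Krt5 (type II) pairs with Krt14 (type I) in the dividing basal layer of stratified epithelium, where Krt15 (type I) is a further basal chain. Krt1 (type II) and Krt10 (type I) replace them in the suprabasal layers. Krt8 (type II), Krt18 and Krt19 (type I) make up the filaments of simple epithelium, and Krt17 (type I) belongs to skin appendages and to activated keratinocytes. Skeletal cells carry vimentin filaments instead, and epithelium is no labelled component of these sorts. These are bulk samples, in which fewer cells of a type and less RNA per cell cannot be told apart.

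The genes lie in the keratin clusters of mouse chromosomes 15 and 11. In RefSeq (GRCm38.p6), Krt5 spans chr15:101707069-101712905, Krt1 chr15:101845426-101850786, Krt8 chr15:101996711-102004342 and Krt18 chr15:102028216-102032026, which makes Krt18 the 1 type I gene of the 9 that lies in the type II cluster. On the other chromosome, Krt10 spans chr11:99385254-99397449, Krt15 chr11:100131759-100135949, Krt19 chr11:100140810-100145926, Krt14 chr11:100203162-100207510 and Krt17 chr11:100256215-100261029. Promoter windows, 250 bases before to 50 bases after a start site, were held by the RefSeq table for 5 of the 9 genes. They are printed for the basal pair Krt5 and Krt14, whose levels were high on the same arrays, and for the simple pair Krt8 and Krt18, whose levels did not share that pattern. Capitals mark matches, on either strand, to the TATA box motif TATAAA, the motif of Sp and KLF factors, CACCC, and further to GCCNNNGGC (AP-2), GGGCGG (Sp1 GC box) and TGANTCA (AP-1).
Krt5, chr15:101712856-101713155, minus strand: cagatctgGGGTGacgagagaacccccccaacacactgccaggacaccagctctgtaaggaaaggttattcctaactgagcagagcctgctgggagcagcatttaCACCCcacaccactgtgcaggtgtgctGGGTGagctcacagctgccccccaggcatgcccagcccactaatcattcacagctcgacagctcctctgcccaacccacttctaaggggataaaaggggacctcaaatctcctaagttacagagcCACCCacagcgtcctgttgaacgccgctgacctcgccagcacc
Krt14, chr11:100205981-100206280, minus strand: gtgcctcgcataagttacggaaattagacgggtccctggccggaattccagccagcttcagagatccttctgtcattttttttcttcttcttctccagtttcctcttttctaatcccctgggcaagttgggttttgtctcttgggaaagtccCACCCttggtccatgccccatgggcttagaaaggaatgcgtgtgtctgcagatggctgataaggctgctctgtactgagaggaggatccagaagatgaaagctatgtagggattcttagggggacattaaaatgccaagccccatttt
Krt8, chr15:102004293-102004592, minus strand: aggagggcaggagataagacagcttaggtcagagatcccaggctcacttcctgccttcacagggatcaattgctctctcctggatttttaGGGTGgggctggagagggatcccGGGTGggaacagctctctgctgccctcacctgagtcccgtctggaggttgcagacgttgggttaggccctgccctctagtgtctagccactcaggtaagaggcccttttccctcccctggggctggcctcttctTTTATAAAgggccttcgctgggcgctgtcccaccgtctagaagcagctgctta
Krt18, chr15:102027966-102028265, plus strand: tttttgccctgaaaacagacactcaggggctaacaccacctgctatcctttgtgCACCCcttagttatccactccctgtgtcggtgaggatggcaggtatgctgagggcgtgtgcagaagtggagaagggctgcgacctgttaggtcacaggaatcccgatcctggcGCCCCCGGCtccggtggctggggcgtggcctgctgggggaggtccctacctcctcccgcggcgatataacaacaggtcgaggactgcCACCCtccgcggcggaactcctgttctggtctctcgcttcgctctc
The Krt5 window held CACCC at 4 places, Krt8 at 2, Krt18 at 2 and Krt14 at 1, and 57.5% of all 32851 windows of this length held it. TATAAA matched in the Krt8 window, on both strands with overlapping letters, and in 13.6% of all windows, with no match in the Krt5, Krt14 and Krt18 windows. GCCNNNGGC matched in the Krt18 window and in 16.6% of all windows, while GGGCGG (35.7% of all windows) and TGANTCA (7.81%) matched in none of the 4. The Krt14 window starts from a site 1480 bases inside the gene record, and its upstream promoter is not covered by it. A match is a description of letters only.

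The arrays correlated with r between 0.931 and 0.995 within a population. Endoglin (Eng), the CD105 antigen, followed the sort on probe set 1432176_a_at, where the 9 CD105+ neonatal arrays lay between 7.47 and 8.41 and the 9 CD105- arrays between 5.31 and 6.19. On its other probe set, Thy+6C3-CD105- replicate 3 had 8.58, within the CD105+ range. This array also stands apart in another way: it had the highest level of the 18 neonatal arrays for 26.5% of all genes, and for 6 of the 9 keratins, and its mean over the genes below the median level was 5.29, against 5.05 to 5.19 on the other neonatal arrays. Replicates 1 and 2 of Thy+6C3-CD105- had 5.19 each in that mean, as had Thy-6C3+CD105- replicate 3. Thy-6C3-CD105- arrays had 5.06, 5.12 and 5.06. Results that rest on Thy+6C3-CD105- replicate 3 are given with and without it, which leaves the level of replicates 1 and 2 in place. All levels are quantile-normalized log2 values, and levels of different genes or probe sets are not comparable with each other.

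Krt5, the basal type II keratin, had 8.31, 8.97 and 9.25 in the 3 Thy+6C3-CD105- arrays and 6.48, 6.78 and 6.33 in the Thy-6C3-CD105- arrays. In Thy+6C3-CD105+ arrays it had 6.65, 6.37 and 6.28, in Thy-6C3+CD105+ arrays 6.23, 6.40 and 6.51, in Thy-6C3+CD105- arrays 6.57, 6.84 and 7.23, and in Thy-6C3-CD105+ arrays 6.33, 6.46 and 6.76. All 3 Thy+6C3-CD105- arrays lay above the other 15 neonatal arrays, and the highest of those was Thy-6C3+CD105- replicate 3. The mean was 8.84 ± 0.48 in Thy+6C3-CD105- arrays, against 6.53 ± 0.23 in Thy-6C3-CD105- cells (SD, n = 3 each), a log2 difference of 2.31 (SE 0.25), or 4.96-fold. Without replicate 3 of Thy+6C3-CD105- the difference was 2.11. The 5 other population means, 6.38 to 6.88, followed each other with overlapping arrays.

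Krt14, the basal type I partner of Krt5, showed the same order of populations at the top. Probe set 1423935_x_at, used for the gene, had 6.34, 7.71 and 6.54 in Thy+6C3-CD105- arrays and 4.65, 4.89 and 4.77 in Thy-6C3-CD105- arrays, while all 15 other neonatal arrays lay between 4.47 and 5.29. The log2 difference between these populations was 2.09 (SE 0.27), or 4.26-fold, and 2.25 without Thy+6C3-CD105- replicate 3. The 15 other arrays averaged 4.76, below the array means of 5.05 to 5.29 of genes below the median level. The fold is therefore taken against a low signal. The second probe set, 1460347_at, had 5.85, 6.84 and 6.61 in Thy+6C3-CD105- arrays, again above the other 15, which reached 5.61. The third, 1455573_at, had 4.98, 5.01 and 4.90 there and 4.22 to 5.45 on the other 15, so its arrays overlapped. With the mean of the 3 probe sets the difference was 1.39.

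Krt15, a basal type I keratin also used as a marker of hair follicle bulge cells, had 6.79, 8.65 and 7.32 in Thy+6C3-CD105- arrays and 4.74, 4.99 and 4.79 in Thy-6C3-CD105- arrays. Its 3 Thy+6C3-CD105- arrays were again above all others, by a smaller gap. Among the other 15 arrays, Thy-6C3+CD105- replicate 3 had 6.48 and Thy-6C3-CD105+ replicate 3 had 6.39, and the remaining 13 reached 5.40. The log2 difference, Thy+6C3-CD105- minus Thy-6C3-CD105-, was 2.75 (SE 0.45), or 6.71-fold, and it was 2.88 without Thy+6C3-CD105- replicate 3 and 2.22 without replicate 2. The Thy-6C3-CD105- arrays, at most 4.99, again gave a low signal.

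Over all genes, 306 of 18193 (1.68%) had all 3 Thy+6C3-CD105- arrays above the other 15 neonatal arrays, and 55 (0.302%) had in addition a mean difference of at least 1. On the probe sets used for the genes, Krt5, Krt14 and Krt15 were the 3 of the 9 keratins in either count. Nothing is read from these shares, since the 3 genes were listed with those levels in view.

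Krt17, the appendage and stress keratin, differed between its 2 probe sets. The one used for the gene, 1420193_at, had 4.07, 4.12 and 4.31 in Thy+6C3-CD105- arrays and 4.03, 4.15 and 3.95 in Thy-6C3-CD105- arrays, and spanned 3.74 to 4.31 over the neonatal arrays. The other, 1423227_at, had 3.88, 4.13 and 4.49 in Thy+6C3-CD105- arrays and at most 3.83 on the other 15, which is separation without overlap by a small gap. Both probe sets stayed below 5.05, the lowest array mean of the genes below the median level.

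The suprabasal keratins spanned narrower ranges. Krt1 lay between 4.27 and 5.02 on the 18 neonatal arrays, with population means of 4.48 to 4.87, each overlapping with the next in order. It had 4.85, 5.02 and 4.74 in Thy+6C3-CD105- arrays and 4.39, 4.38 and 4.67 in Thy-6C3-CD105- arrays, which do not overlap, a difference of 0.39 (SE 0.16). Krt10 had 7.23, 6.81 and 8.01 in Thy+6C3-CD105- arrays and 7.18, 7.02 and 7.02 in Thy-6C3-CD105- arrays, and its highest population mean, 7.61 ± 0.27, was that of Thy+6C3-CD105+ cells. The Krt10 difference between Thy+6C3-CD105- and Thy-6C3-CD105- cells, 0.28, became -0.10 when arrays were only shifted to a common median. Krt1 and Krt10, partners in the same filament, had a Pearson r of -0.36 over the 18 arrays. Krt1 had an SD of 0.20 over these arrays. It stayed below 5.05, the lowest array mean of the genes below the median level, so little is read from this r.

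Krt19, a small type I keratin of simple epithelium, had 5.82, 6.18 and 6.71 in Thy+6C3-CD105- arrays and 5.14, 5.53 and 5.01 in Thy-6C3-CD105- arrays. Single arrays of 3 other populations reached similar levels: 6.10 in Thy-6C3+CD105+ replicate 3, 6.19 in Thy-6C3+CD105- replicate 3 and 6.35 in Thy-6C3-CD105+ replicate 3. The log2 difference was 1.01 (SE 0.35), and 0.77 without Thy+6C3-CD105- replicate 3.

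Krt8, the type II keratin of simple epithelium, had 5.94, 6.24 and 7.33 in Thy+6C3-CD105- arrays and 5.77, 5.83 and 5.53 in Thy-6C3-CD105- arrays on the probe set used, 1435989_x_at. The value of 7.33 belongs to replicate 3, and the log2 difference of 0.79 (SE 0.33) was 0.38 without it. On probe set 1420647_a_at the same 3 arrays had 5.70, 5.39 and 6.12, and on 1423691_x_at they had 5.80, 5.85 and 5.75, inside the range of the other 15 arrays apart from the 6.12. With the mean of the 3 probe sets the difference was 0.25. Krt18, the type I partner of Krt8, spanned 4.91 to 5.90, and its highest population mean was that of Thy-6C3+CD105- cells, 5.60 ± 0.25, beside 5.54 ± 0.36 in Thy+6C3-CD105- cells.

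**Figure D1:**
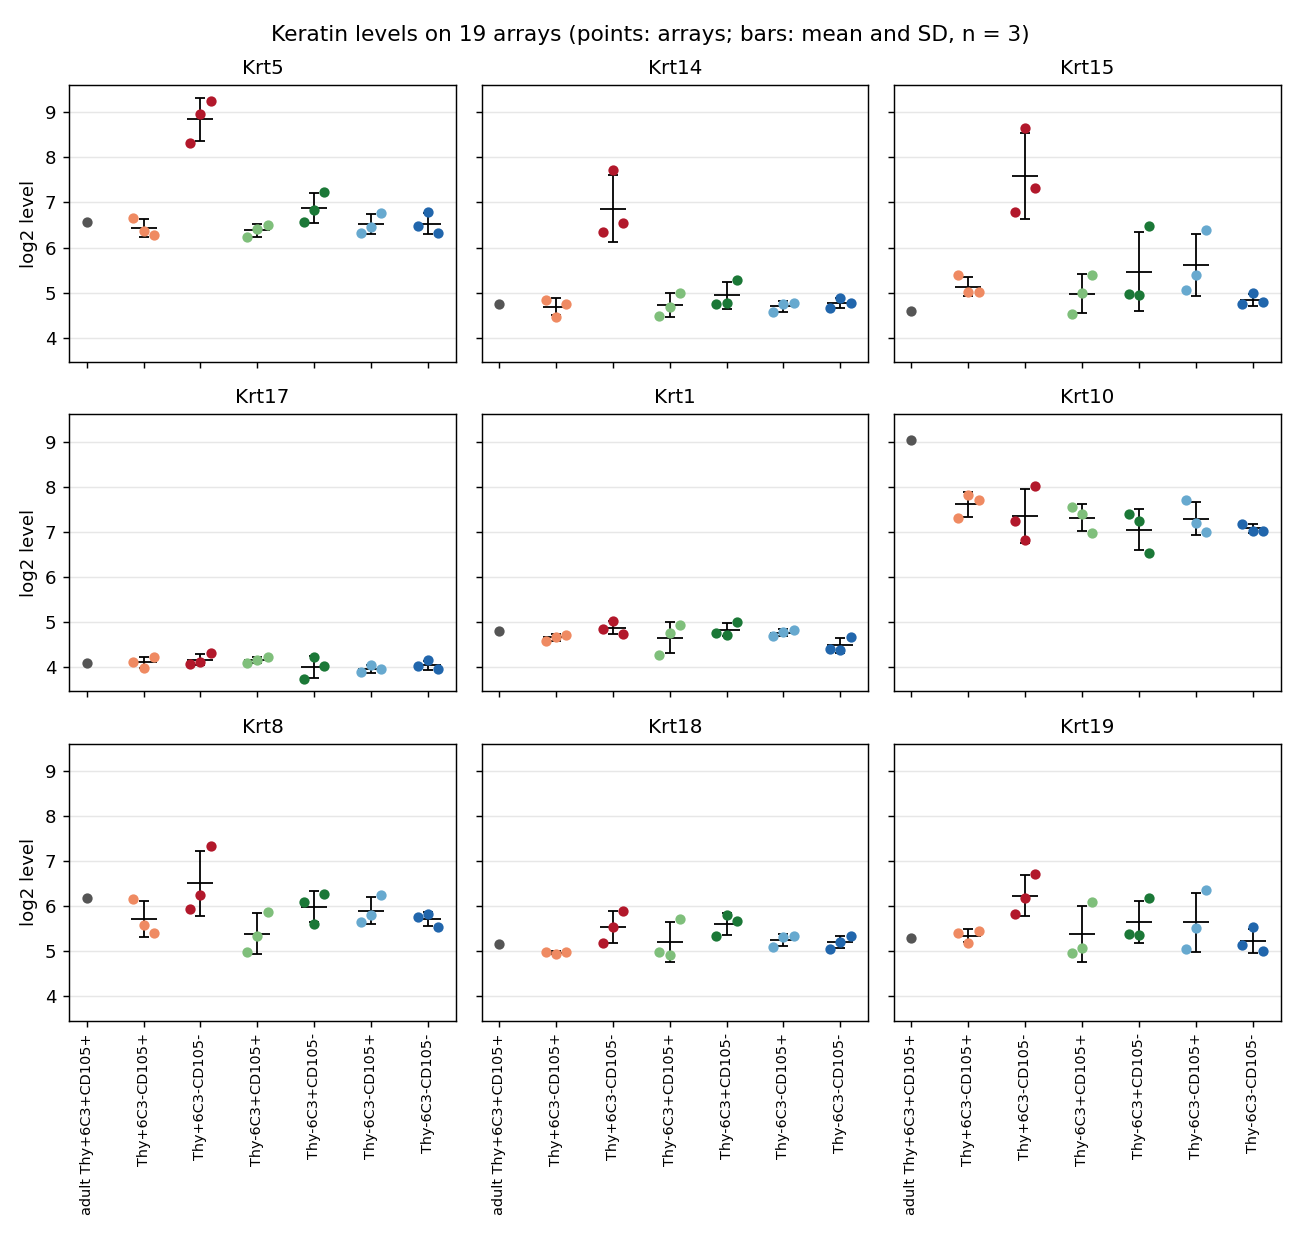
Levels (y axis, log2) of the 9 keratins in the adult array and the 6 neonatal populations (x axis), on the probe set used for each gene, with points for arrays and black bars for the mean and SD of 3 arrays. The Thy+6C3-CD105- points of Krt5, Krt14 and Krt15 lie at 6.34 or above and clear of the other neonatal arrays of the same panel, and levels compare within a panel only.

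**Figure D2:**
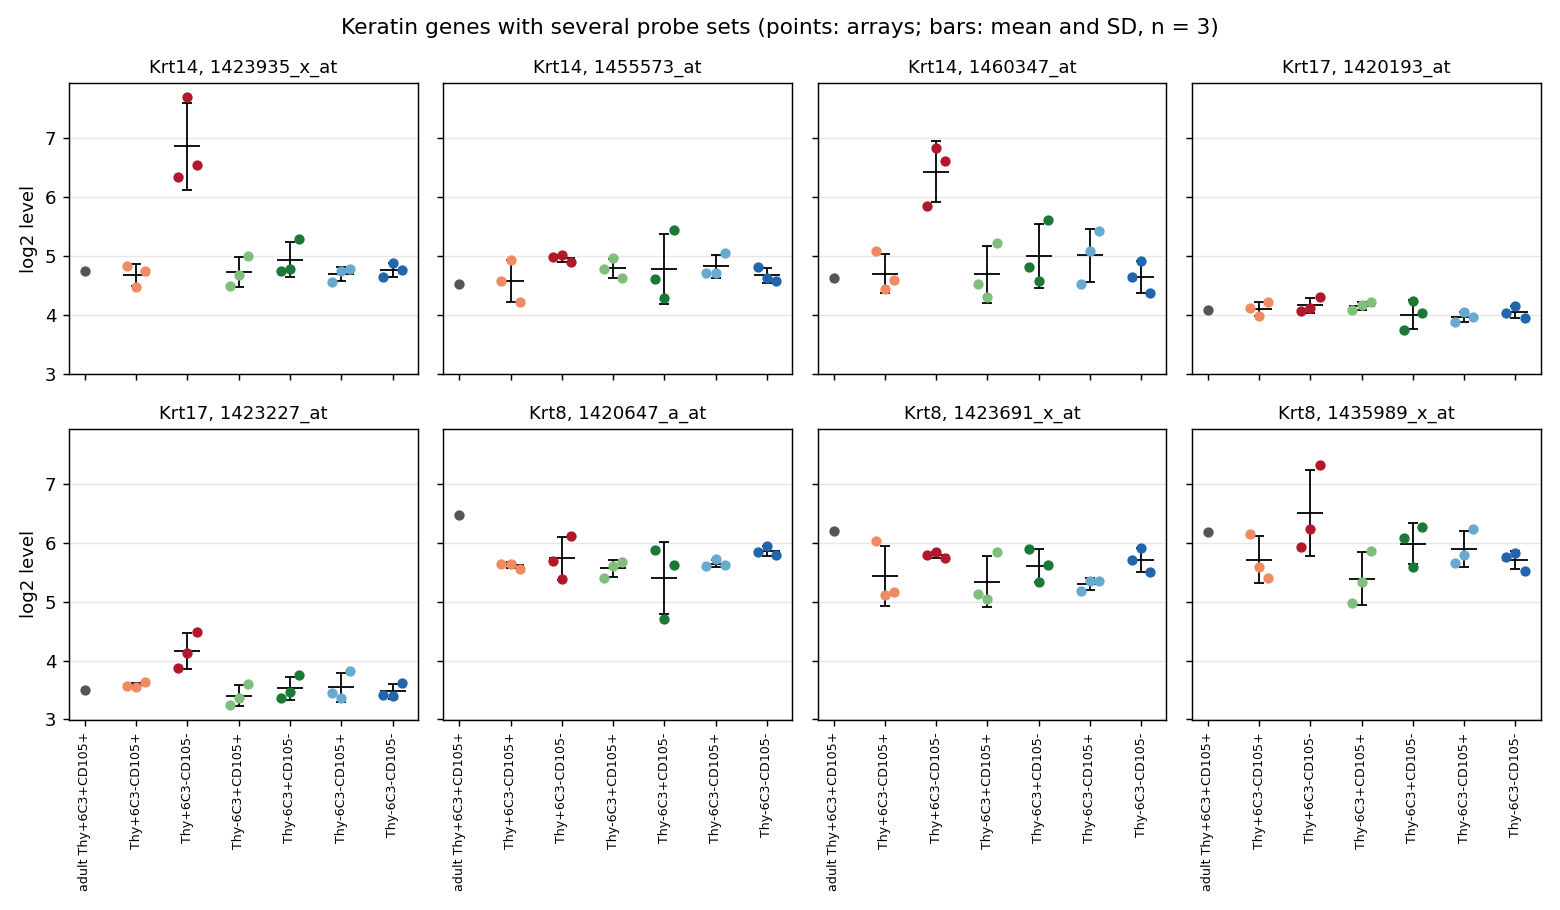
Levels (y axis, log2) on each probe set of the 3 keratins that have several, by population (x axis), with points for arrays and bars for the mean and SD of 3 arrays. Krt14 stands out in Thy+6C3-CD105- arrays on 2 of its 3 probe sets, Krt17 on 1 of 2, and the Krt8 value of 7.33 appears on 1 probe set of 3.

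The Thy step among CD105- cells compares Thy+6C3-CD105- with Thy-6C3-CD105- cells. All 9 keratins had a difference above 0, from 0.12 to 2.75 with a median of 0.79, against a median of 0.13 over all genes, and 6 of the 9 had arrays that did not overlap, as had 34.7% of all genes. The all-gene median depended on scaling: it was 0.09 for values as deposited, but -0.05 where arrays shared a median only, and the split of all called genes between higher and lower was 1915 and 1356, 1648 and 2028, and 928 and 2640 under these scalings. Under a common median only, Krt5 differed by 1.89, Krt14 by 1.97 and Krt15 by 2.54. No test is given for the 9 genes here, and 18% of all genes (3271 of 18193) passed it.

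A matched description holds for the CD105 step among Thy+6C3- cells, which shares the Thy+6C3-CD105- arrays and so is not a separate observation of them. Krt5 averaged 6.43 ± 0.19 in Thy+6C3-CD105+ arrays, against 8.84 ± 0.48 in Thy+6C3-CD105- cells (SD, n = 3 each), a difference of -2.41 (5.31-fold). Krt14 differed by -2.18 and Krt15 by -2.45, each without overlap of arrays. Krt19 differed by -0.89, Krt8 by -0.79 and Krt18 by -0.57, and without Thy+6C3-CD105- replicate 3 these values were -0.65, -0.37 and -0.39. With the mean of its probe sets Krt8 differed by -0.42. The median of the 9 was -0.79, beside -0.08 over all genes (0.15 where arrays shared a median only), and 6 had arrays that did not overlap, which was so for 24.8% of all genes. Krt10 was the exception in sign, at 0.26, and -0.01 at the lowest with 1 array left out.

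Whether Thy went with keratin levels was tested among CD105+ cells, on arrays outside the comparison whose results were known. The spread in the fit came from all 18 neonatal arrays, those of Thy+6C3-CD105- included. With the compared populations only, 0 of the 9 were called as well. Krt5 averaged 6.43 ± 0.19 in Thy+6C3-CD105+ arrays, against 6.52 ± 0.22 in Thy-6C3-CD105+ cells (SD, n = 3 each), a log2 difference of -0.09 (SE 0.25) with a limma adjusted p of 0.934. Krt14 differed by -0.01 (SE 0.27) and Krt15 by -0.49 (SE 0.45). Krt15 differed by -0.10 without Thy-6C3-CD105+ replicate 3 and by -0.77 without replicate 1. None of the 9 passed the test, and 0 had an unadjusted p under 0.05, against 6.66% of all genes called (1211 of 18193). Their median difference was -0.10, from -0.49 to 0.32, beside -0.02 over all genes. Krt18 alone did not overlap between these populations, a state found for 26.2% of all genes, at 4.99, 4.94 and 4.98 in Thy+6C3-CD105+ arrays and 5.10, 5.32 and 5.33 in Thy-6C3-CD105+ arrays, with a limma adjusted p of 0.656, the lowest of the 9.

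The 6C3 step among CD105+ cells used the same Thy-6C3-CD105+ arrays on its lower side, so it is not independent of the Thy step there. Krt15 averaged 4.97 ± 0.43 in Thy-6C3+CD105+ arrays, against 5.62 ± 0.69 in Thy-6C3-CD105+ cells, a difference of -0.65 (SE 0.45) with a limma adjusted p of 0.945. It was -0.26 without Thy-6C3-CD105+ replicate 3 and -0.43 without Thy-6C3+CD105+ replicate 1. Krt8 differed by -0.51 (SE 0.33), and by -0.30 without the last-named array. With the mean of its probe sets Krt8 differed by -0.18. The 9 keratins had 0 calls and 0 unadjusted p under 0.05, against 1.36% of all genes called (0.561% higher, 0.797% lower), with a lowest limma adjusted p of 0.896. Their median difference was -0.11, beside 0.00 over all genes, and 1 of them, Krt17, had arrays that did not overlap (16.3% of all genes). In the 6C3 step among CD105- cells, which is described only, the median was 0.34 beside 0.07, from -0.04 for Krt17 to 0.62 for Krt15, with 1 keratin of 9 not overlapping (17.6% of all genes). The Krt15 value rests on Thy-6C3+CD105- replicate 3 and was 0.11 without it, and that of Krt5, 0.35, was then 0.17. Grouped by title, which takes replicates 2 and 3 out of this population, Krt15 differed by 0.13 and Krt5 by 0.04.

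In the CD105 step among Thy-6C3+ cells Krt5 had 6.23, 6.40 and 6.51 in Thy-6C3+CD105+ arrays and 6.57, 6.84 and 7.23 in Thy-6C3+CD105- arrays. These arrays did not overlap, as was so for 6.21% of all genes, and the log2 difference of -0.50 (SE 0.25) had an unadjusted p of 0.0572 and an adjusted p of 1 in the limma fit. Without Thy-6C3+CD105- replicate 3 it was -0.32, and the Krt15 difference of -0.49 was 0.02, while the Krt15 value was -0.27 without Thy-6C3+CD105+ replicate 1 and -0.75 without Thy-6C3+CD105- replicate 2. On the probe set used, Krt8 differed by -0.60 (SE 0.33), and by -0.39 without Thy-6C3+CD105+ replicate 1. With the mean of its probe sets it differed by -0.24. Probe set 1420647_a_at went the other way, with means of 5.57 in Thy-6C3+CD105+ arrays against 5.40 in Thy-6C3+CD105- arrays. Grouped by title, which takes replicates 2 and 3 out of the Thy-6C3+CD105- population, Krt5 differed by -0.19. The Krt8 difference did not become smaller under that grouping. Krt18 differed by -0.41 (SE 0.22), and by -0.26 without Thy-6C3+CD105+ replicate 2 and -0.66 without replicate 3. Of the 9 keratins 7 had a difference below 0, with a median of -0.27 beside -0.02 over all genes, and 0 had an unadjusted limma p under 0.05. The limma fit called 0.00% of all genes in this step, and 498 had an unadjusted p under 0.05. In the CD105 step among Thy-6C3- cells, described only, Krt5 differed by -0.01 and Krt14 by -0.07, while Krt15 averaged 5.62 ± 0.69 in Thy-6C3-CD105+ arrays, against 4.84 ± 0.13 in Thy-6C3-CD105- cells, a difference of 0.78 that was 0.39 without Thy-6C3-CD105+ replicate 3. Arrays did not overlap for Krt15 and Krt1 in this step, as for 6.33% of all genes.

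**Figure D3:**
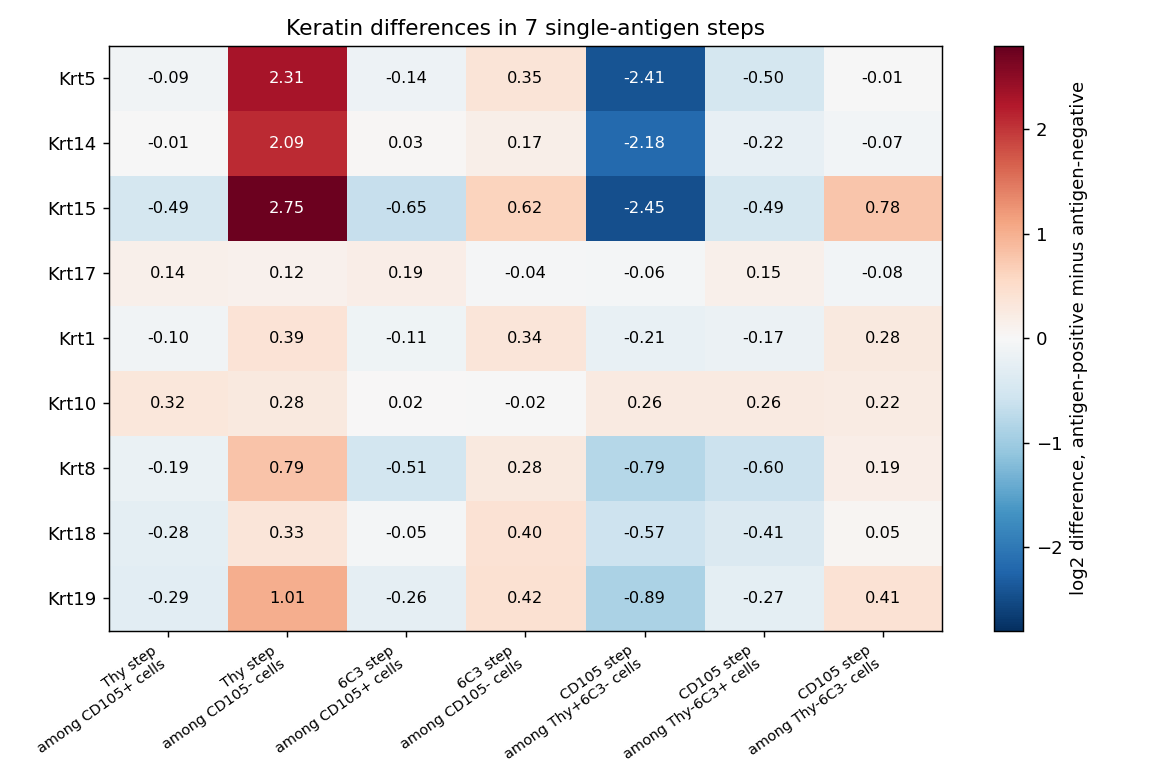
Log2 differences of the 9 keratins (rows) in the 7 comparisons of populations that differ in 1 antigen (columns), antigen-positive minus antigen-negative; colour and printed number give the same value. Large values stand in the 2 columns that contain the Thy+6C3-CD105- arrays, with 2.31, 2.09 and 2.75 and with -2.41, -2.18 and -2.45 for Krt5, Krt14 and Krt15.

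Poly-A control probe sets, which read bacterial transcripts added to the RNA, split the neonatal arrays into 11 with a mean of 6.47 or more and 7 with 5.35 or less, with arrays of every population on both sides. In the Thy step among CD105- cells Krt5 differed by 2.63 within the high arrays (2 Thy+ arrays against 1) and by 1.75 within the low arrays (1 against 2). Krt14 differed by 2.48 and 1.50, and Krt15 by 3.24 and 1.90, in the same order. The values for Krt19 were 1.31 and 0.55, and for Krt8 1.02 and 0.26. These 5 kept their sign on both sides and were smaller within the low arrays, while Krt18 changed sign, at 0.65 and -0.09. With so few arrays no test was made. In the CD105 step among Thy+6C3- cells Krt8 changed sign, at -1.29 and 0.22, and so did Krt17, at -0.11 and 0.04. In the CD105 step among Thy-6C3+ cells only Krt5 and Krt8 kept their sign. There Krt18 differed by -0.80 within the high and 0.38 within the low arrays. Krt15 had -0.94 and 0.42, and Krt19 -0.76 and 0.71, in the same order.

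Some of the keratins varied together over arrays. Over the 18 neonatal arrays Pearson's r was 0.95 for Krt5 and Krt14, 0.93 for Krt14 and Krt15 and 0.90 for Krt5 and Krt15. Over the 15 arrays without Thy+6C3-CD105- these values were 0.79, 0.67 and 0.71. Krt8 and Krt19 had 0.83, Krt15 and Krt19 0.81, and the filament partners Krt8 and Krt18 0.63. Krt10 had a negative r with 7 of the 8 others, such as -0.26 with Krt15, -0.31 with Krt18 and -0.25 with Krt19. Over the 15 arrays without Thy+6C3-CD105- its r was negative with all others, from -0.85 with Krt14 and -0.76 with Krt5 to -0.10 with Krt17. Over the 18 arrays Krt17 lay between 0.02 and 0.36 with all others. The points share arrays, amplification and overall level differences between arrays, and no p is given.

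**Figure D4:**
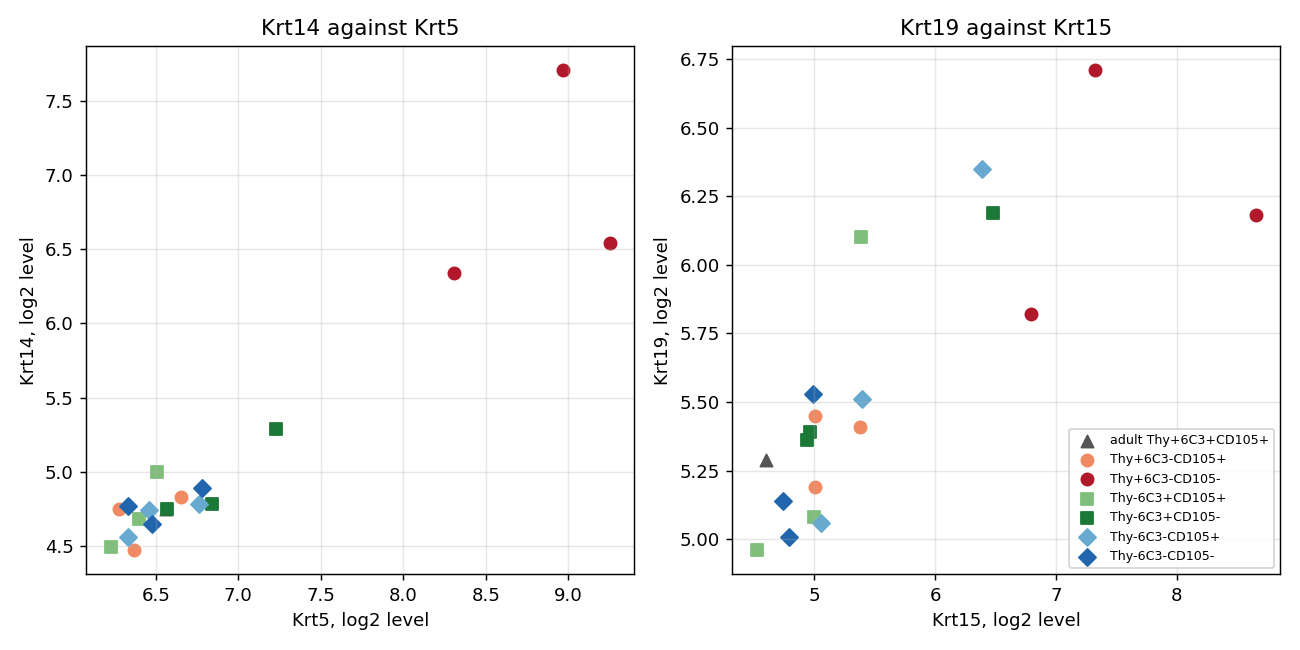
Krt14 against Krt5 (left) and Krt19 against Krt15 (right), log2 levels, 1 point per array with colour and shape for the population. In the left panel the 3 Thy+6C3-CD105- arrays lie apart from the other 16, and Thy-6C3+CD105- replicate 3 (7.23 and 5.29) is next, while the adult point lies under a Thy-6C3+CD105- square; in the right panel 3 single arrays of other populations reach the Krt19 level of the Thy+6C3-CD105- arrays.

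Among 3399 genes with an SD of at least 0.5 over the 18 arrays, 348 (10.2%) had an r of at least 0.8 with Krt19, 208 (6.12%) with Krt8, 188 (5.53%) with Krt15, 77 (2.27%) with Krt5, 10 (0.294%) with Krt14, 2 with Krt10, 1 with Krt18 and 0 with Krt1 or Krt17. The 5 genes most like Krt14 were Lurap1 (r = 0.854), Upk3bl (0.833), 0610038B21Rik (0.832), Hyls1 (0.821) and Pkp1 (0.816), the last a desmosomal plaque protein. Those most like Krt10 were Gab3 (0.891), Ehd4 (0.805), Trim12a (0.780), Evc (0.777) and Acss2 (0.754). Those most like Krt18 were Gsr (0.803), Bhlhe23 (0.786), Nrap (0.785), Magi1 (0.764) and Nkx6-2 (0.743).

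Other epithelial genes were taken as 5 lists with 80 measured genes that are none of the 9 keratins: other epithelial keratins, basal epidermis with hemidesmosome, epithelial adhesion and identity, desmosome with plakins, and suprabasal with cornified layer. Comparing Thy+ with Thy- cells of the CD105- fraction, 17 of the 80 (21.2%) rose in Thy+6C3-CD105- cells and 3 (3.75%) fell, against 10.5% and 7.45% of all genes in the limma fit. Their median difference was 0.32, beside 0.13 over all genes. With a common median only, 11 rose and 4 fell. The count of 20 was 15 without Thy+6C3-CD105- replicate 3, 10 (8 up, 2 down) without Thy-6C3-CD105- replicate 3 and 10 when only the 2 populations entered the fit. Calls over all genes, 3271, were then 1767, 1549 and 1182, so fewer calls were made over all genes too.

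Among 18 other epithelial keratins 4 rose: Krt80, by 1.01 (7.01 ± 0.61 in Thy+6C3-CD105- arrays, against 5.99 ± 0.23 in Thy-6C3-CD105- cells, limma adjusted p 0.0319), Krt76 by 0.75, Krt20 by 0.75 and Krt42 by 0.68. Of 14 basal and hemidesmosome genes 2 rose and 1 fell. Lgals7, a galectin of stratified epithelium, rose by 1.46 (limma adjusted p 0.000802) and Lamb3, the beta chain of laminin-332, by 0.95, while Fgfr2, a growth factor receptor gene, fell by 1.11. Trp63, the p63 gene that marks basal epithelial cells, was not called: on the probe set used it had 5.12, 5.07 and 5.29 in Thy+6C3-CD105- arrays and 4.86, 5.15 and 4.89 in Thy-6C3-CD105- arrays. Of its 3 further probe sets, which were not tested, 2 separated these arrays. One had 4.89, 5.60 and 5.23 in Thy+6C3-CD105- arrays and 4.18, 4.70 and 4.16 in Thy-6C3-CD105- arrays, the other 4.00, 4.74 and 3.95 in Thy+6C3-CD105- arrays and 3.91, 3.48 and 3.81 in Thy-6C3-CD105- arrays. The hemidesmosome genes Itgb4 and Col17a1 were not called either, and Col17a1 averaged 4.93 ± 0.15 in Thy+6C3-CD105- arrays, against 5.09 ± 0.02 in Thy-6C3-CD105- cells.

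Of 18 adhesion and identity genes 4 rose. The claudin gene Cldn3 rose by 1.52 (8.62 ± 0.58 in Thy+6C3-CD105- arrays, against 7.10 ± 0.38 in Thy-6C3-CD105- cells, limma adjusted p 0.00464), the epithelial adhesion molecule Epcam by 1.35, the epithelial trafficking GTPase Rab25 by 1.21 and the claudin Cldn4 by 0.96. The second Epcam probe set had 5.38, 6.32 and 6.12 in Thy+6C3-CD105- arrays and 5.58, 5.43 and 6.62 in Thy-6C3-CD105- arrays, which overlap. Cdh1, the E-cadherin gene, was not called, at 3.69, 4.08 and 3.63 in Thy+6C3-CD105- arrays and 3.24, 3.52 and 3.70 in Thy-6C3-CD105- arrays.

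Of 12 desmosome and plakin genes 3 rose, all plaque proteins: Jup by 1.25, Pkp3 by 1.23 and Pkp1 by 1.20. Dsp, the desmoplakin gene, was not called, and its 5.88, 6.41 and 3.69 in Thy+6C3-CD105- arrays overlapped with 5.53, 4.25 and 5.32 in Thy-6C3-CD105- arrays. Of 18 suprabasal and cornified genes 4 rose and 2 fell. Krtdap, a keratinocyte differentiation gene, rose by 1.19 and Casp14, the caspase of cornification, by 1.11. Calml3, a calmodulin-like gene, fell by 4.21 and the transcription factor gene Klf4 fell by 1.53. Lor and Ivl, which encode the cornified envelope proteins loricrin and involucrin, were not called. A further Lor probe set, not tested, was lower without overlap. It had 5.64, 6.06 and 5.74 in Thy+6C3-CD105- arrays and 6.74, 6.37 and 8.36 in Thy-6C3-CD105- arrays. The last Lor probe set overlapped, with means of 5.14 against 4.97. Ivl was higher without overlap on the probe set used, with means of 6.03 against 5.54.

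Among CD105+ cells 2 of the 80 epithelial genes rose in the Thy+ population and 3 fell, against 4.03% and 2.63% of all genes, with a median of -0.05 beside -0.02. Lama3, the alpha chain of laminin-332, rose by 1.12 and Krtdap by 0.90. Calml3 fell by 4.16, Fgfr2 fell by 1.47 and Col17a1 fell by 1.12. The count of 5 was 3 without Thy-6C3-CD105+ replicate 3 and also without Thy+6C3-CD105+ replicate 2. In the 6C3 step among CD105+ cells 1 gene was called, Calml3, which fell by 1.31, and the call was lost without any 1 of the 3 Thy-6C3-CD105+ arrays or without replicate 2 or 3 of Thy-6C3+CD105+.

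None of the 80 passed the limma test in the 4 remaining steps. In the CD105 step among Thy+6C3- cells 23 (28.8%) had an unadjusted p under 0.05, against 22.4% of all genes, the median difference was -0.29 beside -0.08 over all genes, and 1.02% of all genes were called (0.824% higher, 0.192% lower). That count depends on the weighting of arrays: with limma array weights 20 of the 80 (25.0%) fell in Thy+6C3-CD105+ cells, and so did 1680 of all genes (9.23%), against 35 without weights. In the 6C3 step among CD105- cells 12 (15%) had an unadjusted p under 0.05, against 13.9% of all genes (2.74% of all genes called, 1.24% higher and 1.50% lower, or 226 and 272 genes, and 82 and 315 with a common median only), in the CD105 step among Thy-6C3+ cells 4 (5%, against 498 of all genes, 2.74%), and in the CD105 step among Thy-6C3- cells 3 (3.75%, against 1.75% of all genes, with 0.00550% called).

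**Figure D5:**
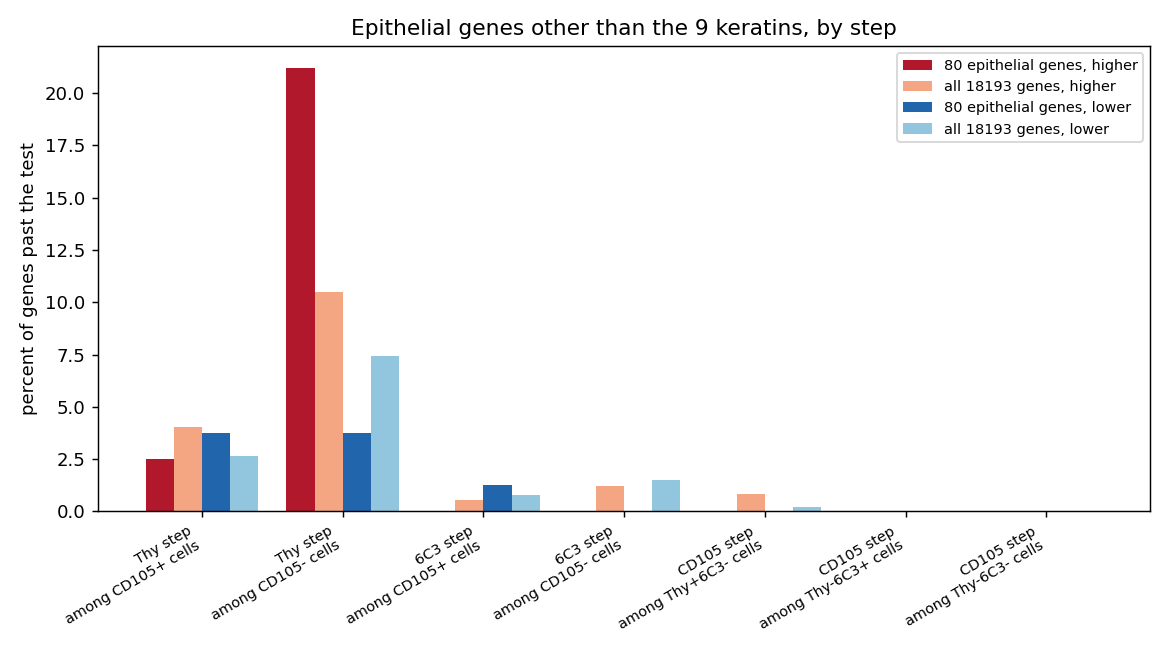
Percent of genes past the limma test (y axis) in each of 7 comparisons (x axis), for 80 epithelial genes other than the 9 keratins and for all 18193 genes, in each direction. In the Thy step among CD105- cells 21.2% of the epithelial genes were higher, against 10.5% of all genes, and in the last 2 comparisons the bars are at or near 0.

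Genes of other cell types were followed in the same step. In Thy+6C3-CD105- cells the array means of the 80 epithelial genes were 6.09 to 6.20, against 5.84 to 5.93 in Thy-6C3-CD105- cells, and other neonatal arrays reached 6.10. Of 9 myeloid genes 2 rose, Laptm5 by 2.29 on the probe set used, of 5, and Csf1r by 1.21. Myeloid array means were 5.77 to 6.17 against 5.13 to 5.45, although CD45+ cells were gated out. The other Laptm5 probe sets, which were not tested, differed in direction. A further set was lower without overlap, at 4.51, 4.63 and 5.07 in Thy+6C3-CD105- arrays, against 6.40, 5.14 and 5.86 in Thy-6C3-CD105- arrays. Another overlapped, with means of 6.95 against 6.49. The rest were higher without overlap, with means of 7.09 against 6.36 and of 3.28 against 3.05. The CD45 gene Ptprc had 4.35, 4.71 and 5.10 in Thy+6C3-CD105- arrays and 3.86, 4.49 and 4.21 in Thy-6C3-CD105- arrays and was not called. Of 8 endothelial genes 1 rose (Tek, which encodes Tie2, by 1.51), and array means were 5.80 to 5.84 against 5.31 to 5.50. Of 8 muscle genes 1 rose (Ckm, by 0.92), of 21 hair and nail genes 1 (Krt73, by 0.47), of 6 Schwann and melanocyte genes 0 and of 3 erythroid genes 0. Schwann and melanocyte array means were 5.84 to 6.29 against 5.48 to 5.74, and erythroid means 4.84 to 5.03 against 4.36 to 4.55. Over all genes below the median level, array means were likewise higher, at 5.19, 5.19 and 5.29 against 5.06, 5.12 and 5.06. The part of these other cell types in the keratin levels was not tested.

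Skeletal genes were followed as a scale for these differences. All 12 chondrocyte genes fell, among them Matn1, which fell by 5.50, and Col9a2, which fell by 4.57, and 6 of 9 tendon and fibrous genes rose, among them Kera by 2.75 and Mfap5 by 2.49. Of 12 intermediate filament genes outside the keratin family 6 rose, with Prph (peripherin) by 2.58, Nes (nestin) by 1.29 and Lmna (lamin A/C) by 1.05. Where CD105+ cells were compared by Thy and no keratin passed, 5 of these 12 rose, including Prph by 1.83 and Vim (vimentin) by 0.96. All 12 chondrocyte genes fell there too.

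The adult array was set beside the neonatal ones as a description. Krt10 had 9.04 on the adult array and at most 8.01 on the 18 neonatal arrays, a state shared with 11.7% of all genes. Krt5 (6.56), Krt14 (4.75), Krt15 (4.60), Krt1 (4.79), Krt18 (5.16) and Krt19 (5.29) lay within the neonatal range. Krt8 had 6.47 and 6.20 on probe sets 1420647_a_at and 1423691_x_at, above all neonatal arrays, and 6.19 on 1435989_x_at, within their range. The epidermal secreted protein genes Sbsn and Dmkn, picked after their values were seen, had 12.20 and 9.97 on the adult array, against at most 9.78 and 6.04 on the neonatal arrays. Of other epidermal genes, Lor (6.28), Ivl (5.52), Perp (6.03), Col17a1 (4.20) and Dsp (3.83) were not above the neonatal arrays there, and Calml3 had 10.33, against at most 10.21 on the neonatal arrays.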

How the data were processed

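The deposited table gives expression values per probe set for 19 Affymetrix mouse arrays, read as log2 because they run from 2.55 to 14.6. For the log2 values the authors deposited, summarisation and normalization are not stated by any label or header. RNA went through repeated linear amplification, per the labels' protocols. Array medians differed (5.60 to 6.02), so values were quantile normalized over the 19 arrays.

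Among the single-symbol probe sets of a gene, the one brightest on average across the 18 neonatal arrays stood for it. Names came from the platform annotation, in which 34945 probe sets had 1 symbol, 932 several and 9160 none, beside 64 controls. No low-value filter was used. The model had 1 mean per population (limma 3.58.1, R 4.3.3; 12 residual and 5.38 prior degrees of freedom, eBayes with trend, two-sided). Benjamini-Hochberg adjustment ran over all 18193 genes of a step, with a threshold of 0.05. Arrays carry no read depth, and 3 arrays per population limit the precision.

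The keratins, gene lists and tests were chosen with earlier results of these data known. The 9 keratins were tested only in the 3 steps that share no array with the Thy step among CD105- cells. Named genes were all keratins, up to 4 called genes per list and step with the largest difference, and 5 genes most like Krt14, Krt10 and Krt18. Genes that were not called are named as known markers, and this choice was made after values were seen. Of the listed genes, those without a single-symbol probe set were not used.

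On simulated arrays of this layout (18193 genes, 200 changed) the fit recovered 51% to 62% of changes of 1 and 91% to 95% of changes of 2 (log2), with 4 to 15 false calls per step. The simulated noise was normal and independent between genes and arrays, around a common mean per gene. Effects shared over a whole array were not simulated, so these rates do not carry over to the real arrays. Promoter sequences and gene positions are RefSeq's. Tables and plots used Python 3.11.15 with pandas 2.3.3, numpy 2.4.6 and matplotlib 3.10.9.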

Additional observations from a re-analysis of the deposited data

Results flagged for a closer look

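On the adult array, which entered no comparison, Krt10 had 9.04, above the 8.01 of the highest neonatal array. Krt8 had 6.47 on probe set 1420647_a_at and 6.20 on 1423691_x_at there, above neonatal maxima of 6.12 and 6.03. Age, body site and population differ together on this 1 array, and 11.3% of all probe sets were above every neonatal array.

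Krt15 differed by -2.45 in the CD105 step among Thy+6C3- cells and by 0.78 in that among Thy-6C3- cells, with no overlap of arrays in either. The 0.78 was 0.39 without Thy-6C3-CD105+ replicate 3. Krt1 differed by -0.21 and 0.28 in the same 2 steps, also without overlap. These steps share no array, and the difference between them was not tested.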

How the results depend on the processing

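The count of 0 keratins called in each of the 3 tested steps stayed 0 under all 10 alternatives and with each of the 18 arrays left out. With genes above the median level only, Krt5 and Krt10 alone of the 9 remained to be tested. In the CD105 step among Thy-6C3+ cells at most 1 of all genes was called under any setting, so little is read from the 0 there. Of 1715 single keratin values under the alternatives and with arrays left out, 1692 moved by less than the spread between replicates and 23 moved further. Many of these settings cannot move a difference of 2 population means. Examples are leaving out an array of another population, eBayes without trend, the compared populations only and the replicate block. The count of 1692 is therefore no measure of stability. Of the 63 keratin differences, 22 took the opposite sign under at least 1 setting, and none of those 22 was larger than 0.49 in size as reported. For the 80 other epithelial genes the counts of calls moved further, and calls over all genes did not always move in the same direction. In the Thy step among CD105- cells with a common median only, the epithelial calls went from 20 to 15. Calls over all genes then went from 3271 to 3568. Under the same setting the 6C3 step among CD105- cells went from 0 to 1 epithelial calls, and from 498 to 397 over all genes. In the Thy step among CD105+ cells the 5 calls became 3 with genes above the median level only. Those 3 were 17.6% of the 17 genes that remain there, against 10.5% of all genes above that level. The count was 14 with array weights (17.5%, against 15.9% of all genes) and 10 with the compared populations only (12.5%, against 9.97%). It was 3 to 7 with an array left out. In the Thy step among CD105- cells the 20 calls became 11 with genes above the median level only. Of the 80 genes 17 remain there, and the 11 were 64.7% of them, against 28.4% of all genes above that level. The 20 calls became 10 with the compared populations only (12.5%, against 6.50% of all genes), and 10 to 22 with an array left out. In the 6C3 step among CD105+ cells the 1 call became 0 with values as deposited, 3 with array weights (3.75%, against 3.58% of all genes) and 2 with the poly-A set as a block, and 0 to 1 with an array left out. In the 6C3 step among CD105- cells the count of 0 became 1 with a common median, the level filter, array weights, grouping by title or the poly-A block, and 0 to 1 with an array left out. In the CD105 step among Thy+6C3- cells the count of 0 became 20 with array weights and 1 with values as deposited, the mean of probe sets or the poly-A block, and 0 to 4 with an array left out. The remaining CD105 steps had 0 calls throughout. The cause of these moves was not tested. Replicate numbers did not pair the arrays: deviations of same-numbered arrays correlated between -0.560 and 0.593. With the replicate block, the count in the CD105 step among Thy+6C3- cells was 1 and that of the Thy step among CD105- cells 21. The 9 keratins had 0 calls under the block in each of the 3 steps in which they were tested, and were not tested in the others.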
